A study of Mus musculus with 9 samples.

Results

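The homeostatic signature of microglia is the set of genes by which the resident macrophages of the resting brain are recognised. A set of 10 of these genes (P2ry12, P2ry13, Tmem119, Cx3cr1, Csf1r, Sall1, Siglech, Gpr34, Olfml3 and Selplg) was taken as a fixed list of symbols, with no threshold on measured values, and followed in whole brain of young and old mice. Each symbol matched 1 Ensembl ID of the 49315 in the count table, and all 10 genes were among the 18492 that passed the filter on low counts and were tested. The mice were wild-type C57BL/6J males, 5 young and 4 old (33 months). The labels give the young mice as 3 months old, and the methods of the study as 3 or 4 months. They had no transgene or treatment, each sample was 1 mouse, and old replicate 2 was not analysed here. PolyA-selected RNA was sequenced, and the libraries held from 14229259 to 21150439 counts on genes.

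Microglia survey the brain with moving processes, clear debris and synapses, and respond to injury. Their survival depends on the receptor encoded by Csf1r, and their resting identity depends on transforming growth factor beta and on transcription factors such as Sall1 and PU.1 (Spi1). In disease and injury microglia often lower their homeostatic genes while they raise lysosomal, lipid-handling and antigen-presenting genes. The comparison here asks how far the homeostatic genes differed with age in RNA of the whole brain. In such bulk RNA, fewer cells of a type and less RNA per cell cannot be told apart.

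Of the 10 genes, 6 had a window in the RefSeq promoter table of GRCm38.p6. The 250 bases upstream of the start are shown for the 2 nucleotide receptor genes, which lie side by side, and for Sall1, whose values in single mice stood apart from those of the other genes. The windows are chr3:59262986-59263235 for P2ry12, chr3:59210883-59211132 for P2ry13 and chr8:89044163-89044412 for Sall1, each read 5′ to 3′ on the minus strand. Capitals mark a PU box (letters GAGGAA) or an ETS core (letters GGAAGT). Both are short motifs of the ETS factor family, to which PU.1 belongs, searched on both strands. They share the letters GGAA.
P2ry12: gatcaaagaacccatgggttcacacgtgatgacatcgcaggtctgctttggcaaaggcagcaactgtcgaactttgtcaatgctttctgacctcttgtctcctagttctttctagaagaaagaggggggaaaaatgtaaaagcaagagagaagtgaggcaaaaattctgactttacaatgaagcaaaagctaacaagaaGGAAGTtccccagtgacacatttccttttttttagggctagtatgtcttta
P2ry13: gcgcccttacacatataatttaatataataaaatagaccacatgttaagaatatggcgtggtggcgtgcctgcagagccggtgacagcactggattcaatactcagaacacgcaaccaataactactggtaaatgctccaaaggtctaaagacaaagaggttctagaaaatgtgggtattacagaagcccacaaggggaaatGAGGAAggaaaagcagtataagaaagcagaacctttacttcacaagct
Sall1: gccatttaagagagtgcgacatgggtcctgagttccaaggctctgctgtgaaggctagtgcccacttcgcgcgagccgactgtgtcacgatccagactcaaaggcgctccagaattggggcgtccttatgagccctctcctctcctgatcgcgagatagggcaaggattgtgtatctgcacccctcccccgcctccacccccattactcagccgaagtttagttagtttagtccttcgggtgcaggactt

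The P2ry12 window held 1 ETS core and the P2ry13 window 1 PU box. Of all 32851 windows of this length, 23.2% held a PU box and 19.7% an ETS core, so that a match is common and is given as a description of the letters only. The Siglech window held 1 ETS core, and those of Cx3cr1 and Olfml3 held neither. Of the 3 windows listed for Sall1, which start from different transcripts, the third held 1 ETS core and the others neither motif. The windows also differed in CpG dinucleotides, of which the median window held 6. P2ry12 had 3, P2ry13 had 5, Siglech had 2, Cx3cr1 had 4 and Olfml3 had 6. The Sall1 windows had 13, 25 and 30 CpG, and the first of them is the one shown. Tmem119, Csf1r, Gpr34 and Selplg had no entry.

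Of these 10 genes, 2 were higher in old brain by edgeR's quasi-likelihood test (Benjamini-Hochberg adjusted p under 0.05), against 6.09% of all tested genes. They were Tmem119, a transmembrane protein used to tell microglia from other macrophages, and Selplg, which encodes the selectin ligand PSGL-1. None was lower, against 4.89% of all tested genes. None passed the adjusted p together with an absolute log2 fold change over 0.58, against 2.13% of all genes that did so in the direction of higher values. The fold change was above 0 for 9 of the 10 genes, with a median log2 fold change of 0.20, beside -9.2e-05 over all genes tested. At an unadjusted p under 0.05 there were 6 genes, all higher, against 13.2% of all tested genes. In 3 genes (Tmem119, Selplg and P2ry13) every old mouse was above every young mouse, as in 6.5% of all tested genes.

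**Figure D1:**
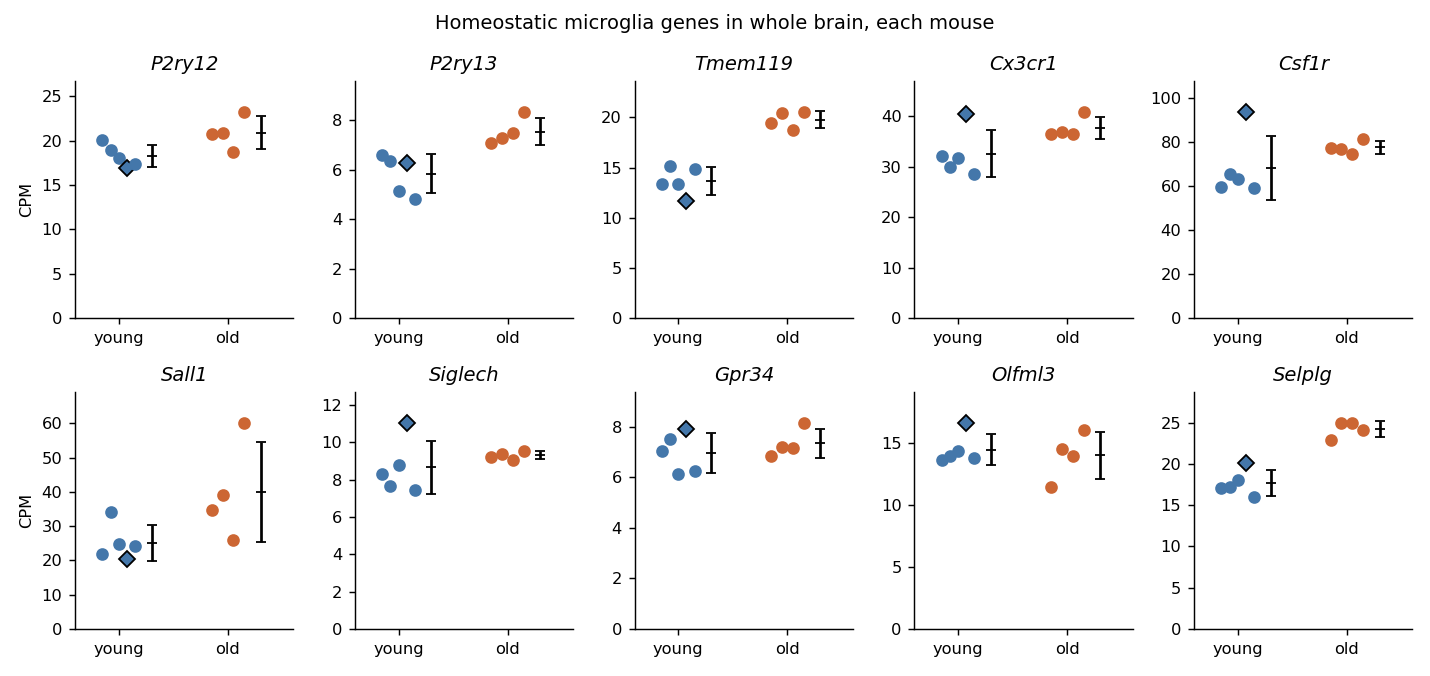
Library-size normalized counts (CPM) of the 10 genes in each of 5 young (blue) and 4 old (orange) mice, with the mean and SD as black bars and young replicate 4 as an outlined diamond; each axis starts at 0. The ages do not overlap for Tmem119, Selplg and P2ry13, and young replicate 4 is the highest mouse for Csf1r, Siglech and Olfml3.

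Young replicate 4 stood apart from the other young mice in these genes. On the log2 CPM scale it lay above the mean of the other 4 young mice by 0.60 for Csf1r, 0.45 for Siglech, 0.40 for Cx3cr1, 0.26 for Olfml3, and 0.24 for both Selplg and Gpr34. It was also the lowest young mouse for Sall1 (by -0.35), Tmem119 (by -0.28) and P2ry12 (by -0.13), so that its values did not shift all 10 genes in one direction. The summed CPM of the 26 other microglia genes listed (the C1q genes, Trem2, Tyrobp and others) was 673 in this mouse, against 429 to 446 in the other young mice and 688 to 761 in old mice. Without this mouse, 4 of the 10 genes were called higher, where Csf1r and Cx3cr1 joined Tmem119 and Selplg, and the median log2 fold change was 0.32, beside 6.52% of 18132 genes called higher.

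**Figure D2:**
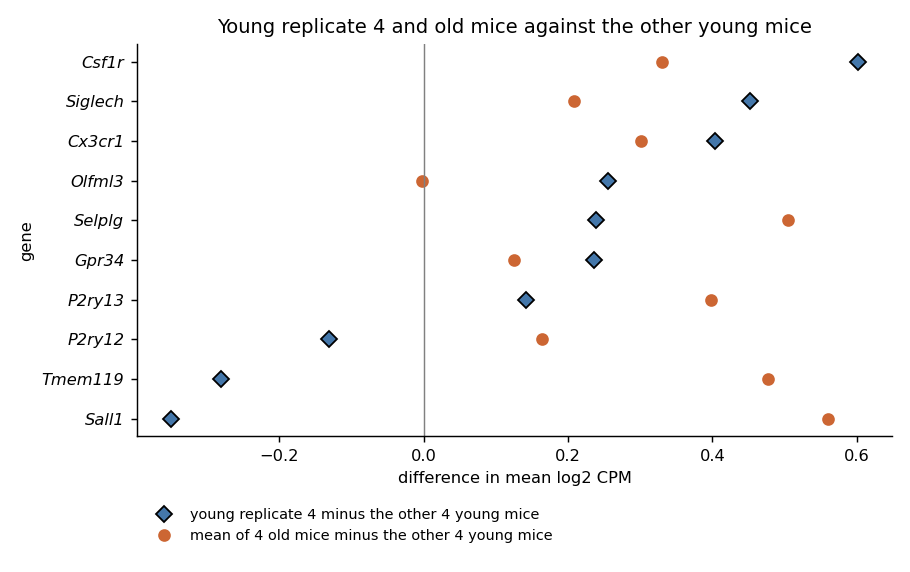
For each gene, the difference in mean log2 CPM from the other 4 young mice, for young replicate 4 (blue diamonds) and for the 4 old mice (orange circles). Young replicate 4 lies further from the other young mice than the old mice do for Csf1r, Siglech, Cx3cr1, Olfml3 and Gpr34, and on the opposite side from them for Tmem119, P2ry12 and Sall1.

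Tmem119 was measured at 13.3, 15.2, 13.4, 11.6 and 14.9 CPM in young replicates 1 to 5. In old replicates 1, 3, 4 and 5 it was at 19.4, 20.5, 18.7 and 20.5 CPM. Even the lowest old mouse was thus above the highest young mouse, and the means were 13.7 ± 1.41 (SD, n = 5) and 19.8 ± 0.873 (SD, n = 4). The log2 fold change was 0.53 (SE 0.078, 95% confidence interval 0.37 to 0.70, adjusted p = 0.00037, edgeR's quasi-likelihood test). No other gene of the set had a smaller p.

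Selplg was at 17.1, 17.2, 18.0, 20.1 and 16.0 CPM in the young mice and at 22.9, 25.0, 25.0 and 24.1 CPM in the old mice. Here too all old mice exceeded all young mice, young replicate 4 being the nearest to them. The means were 17.7 ± 1.55 (SD, n = 5) and 24.3 ± 0.965 CPM (SD, n = 4), and the log2 fold change was 0.45 (SE 0.068, 95% confidence interval 0.31 to 0.60, adjusted p = 0.00046, edgeR). Neutrophils, monocytes and T cells also carry PSGL-1 on their surface. Of the 10 monocyte and neutrophil genes listed, 3 were tested and their summed CPM was 1.99 to 3.72 in young mice, 4.02 to 4.89 in 3 old mice and 54.1 in old replicate 4. Ly6g, which defines neutrophils, had 0 counts in 8 libraries and 5 in old replicate 4. Selplg was at 25.0 CPM in old replicates 3 and 4 alike, and the part of these cells in its values was not tested. The genes of the selectins themselves were at 0 to 18 counts per library and were not tested.

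Tmem119 and Selplg are neighbours. In the GENCODE M21 annotation of GRCm38, Tmem119 lies on the minus strand at chr5:113793729-113800516 and Selplg on the same strand at chr5:113818536-113832644, with 18019 bp between them. Neither shares exon bases with another annotated gene. Of 19 tested genes within 500000 bp of Tmem119, 4 were higher in old brain and none was lower. Selplg, itself of the set, was among these 4. Around Cx3cr1 5 of 20, around Selplg 4 of 18 and around Csf1r 3 of 17 were higher. Around Olfml3 2 of 14 and around Siglech 1 of 14 were higher. None was called of 8 around P2ry12, 8 around P2ry13, 6 around Gpr34 and 4 around Sall1. Of all tested genes 6.09% were higher. Besides Selplg, the higher genes around Tmem119 were Cmklr1, a receptor for the chemoattractant chemerin (log2 fold change 0.78, adjusted p = 0.0091, edgeR), Acacb, an acetyl-CoA carboxylase (0.33, adjusted p = 0.024), and Coro1c, an actin-binding coronin (0.14, adjusted p = 0.017). The closest genes on the other side of Tmem119, Iscu and Sart3, had log2 fold changes of -0.0017 and 0.084, with adjusted p of 0.99 and 0.31. These neighbours were named for their position and p after their values were seen.

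**Figure D3:**
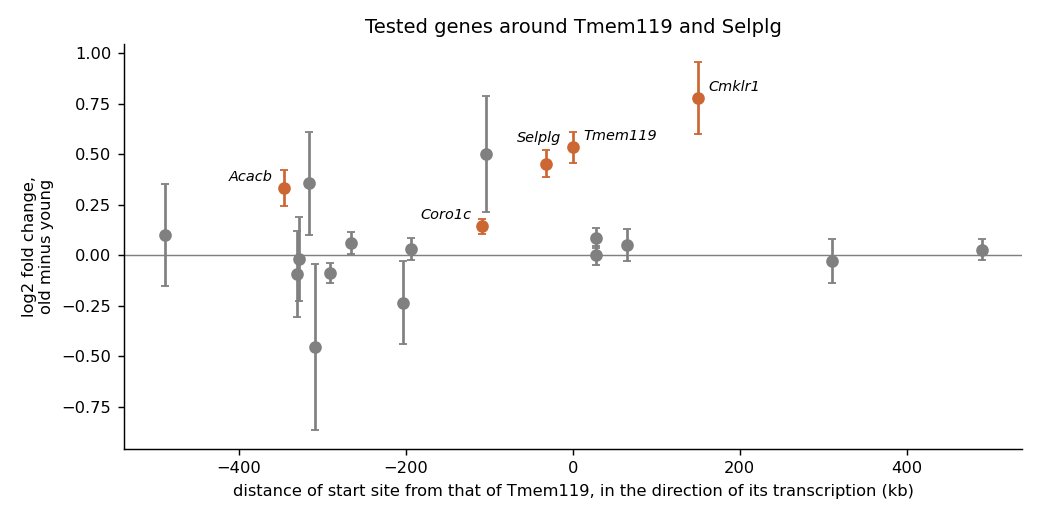
Log2 fold change (old minus young, bars are the SE) of the tested genes within 500000 bp of Tmem119, by the distance of their start from that of Tmem119 in kb, with genes at an adjusted p under 0.05 in orange. Selplg and Tmem119 stand side by side at 0.45 and 0.53. Iscu (-0.0017), Sart3 (0.084) and Ficd (0.051) lie between Tmem119 and Cmklr1 (0.78).

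P2ry12 and P2ry13 encode receptors for ADP, which leaks from injured cells. The P2Y12 receptor steers microglial processes towards such sites. P2ry12 was at 20.1, 18.9, 18.1, 17.0 and 17.4 CPM in the young mice and at 20.8, 20.9, 18.7 and 23.2 CPM in the old mice. The ages overlapped through old replicate 4, and the means were 18.3 ± 1.27 (SD, n = 5) and 20.9 ± 1.85 CPM (SD, n = 4). The log2 fold change of 0.19 (SE 0.073, 95% confidence interval 0.04 to 0.35) did not pass the test (edgeR, adjusted p = 0.10).

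P2ry13 encodes a receptor of the same family. Its values were 6.59, 6.36, 5.15, 6.28 and 4.82 CPM in young and 7.06, 7.26, 7.50 and 8.34 CPM in old mice. All old mice were above all young mice, and the log2 fold change was 0.36 (SE 0.11, 95% confidence interval 0.12 to 0.60). Its adjusted p of 0.0504 in edgeR lay just past the threshold. The counts behind these values were the lowest of the set, at 75 to 142 per library.

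Both genes lie on the minus strand of chromosome 3, P2ry13 at chr3:59207892-59210882 and P2ry12 at chr3:59216272-59262871, with 5389 bp between them. Med12l, a subunit gene of the Mediator kinase module, spans them on the opposite strand and shares 9 exon bases with P2ry12 and none with P2ry13. Its log2 fold change was -0.14 (edgeR, adjusted p = 0.082), opposite in sign to that of both receptor genes. Of the 8 tested genes within 500000 bp of either receptor gene, none was called, beside 6.09% of all tested genes higher and 4.89% lower. Each receptor gene was counted as a neighbour of the other, and the remaining neighbours were the same genes.

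Gpr34 encodes a receptor for lysophosphatidylserine, a lipid released by damaged cells. It was at 7.06, 7.52, 6.12, 7.92 and 6.24 CPM in young and 6.85, 7.19, 7.17 and 8.16 CPM in old mice. The ages overlapped widely and the log2 fold change was 0.07 (SE 0.11, 95% confidence interval -0.16 to 0.29, adjusted p = 0.74, edgeR).

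Csf1r and Cx3cr1 encode the receptors for the growth factors CSF1 and IL-34 and for the neuronal chemokine fractalkine. Csf1r was at 59.5, 65.3, 63.2, 93.7 and 58.9 CPM in the young mice. In the old mice it was at 77.3, 76.9, 74.6 and 81.5 CPM. The old mice lay within a narrow range, above 4 of the young mice and below young replicate 4. With all mice the log2 fold change was 0.18 (SE 0.14, 95% confidence interval -0.15 to 0.51, adjusted p = 0.48, edgeR). Without young replicate 4 it was 0.33 (edgeR, adjusted p = 0.00018, where the 20 alternative settings gave 0.00018 to 0.89). The 3′ part of Csf1r, on chromosome 18, shares 873 exon bases (15.1% of its exon length) with Hmgxb3 on the opposite strand, whose log2 fold change was -0.06 (edgeR, adjusted p = 0.56). The sources used here do not state whether these libraries were counted by strand.

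Cx3cr1 was at 32.1, 30.0, 31.7, 40.4 and 28.5 CPM in young and at 36.5, 36.8, 36.5 and 40.9 CPM in old mice. Again only young replicate 4 overlapped with the old mice. The log2 fold change was 0.21 with all mice (SE 0.087, 95% confidence interval 0.02 to 0.39, adjusted p = 0.15, edgeR) and 0.30 without young replicate 4 (adjusted p = 0.0028, where the 20 alternative settings gave 0.0028 to 0.87).

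**Figure D4:**
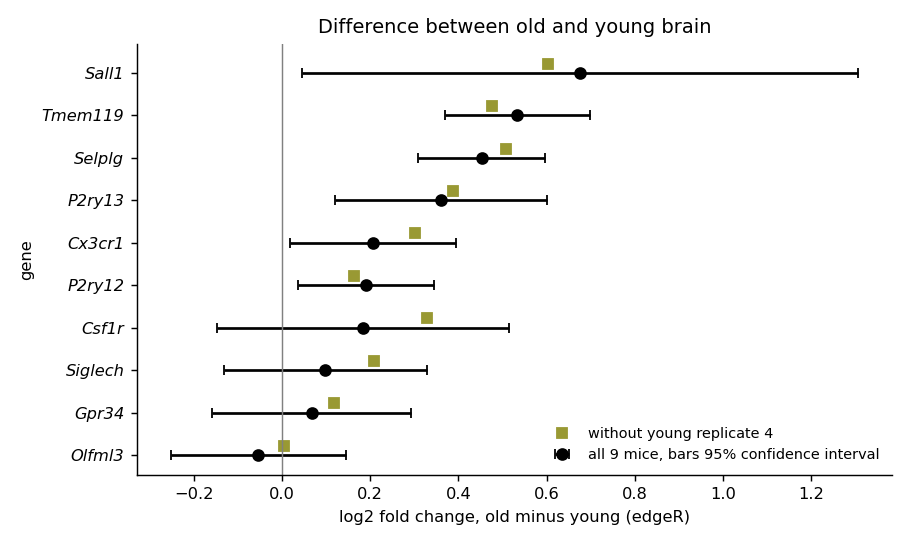
Log2 fold change between 4 old and 5 young mice for each gene, with its 95% confidence interval (edgeR, black), and the same without young replicate 4 (squares). Csf1r moves from 0.18 to 0.33 and Cx3cr1 from 0.21 to 0.30 without that mouse, while Tmem119 moves from 0.53 to 0.48.

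Siglech encodes a sialic acid-binding lectin that separates microglia from most other brain macrophages. It was at 8.31, 7.69, 8.80, 11.1 and 7.47 CPM in young and at 9.24, 9.38, 9.08 and 9.57 CPM in old mice. The pattern was that of Csf1r, with the old mice close together, above 4 young mice and below young replicate 4. The log2 fold change was 0.10 (SE 0.11, 95% confidence interval -0.13 to 0.33, adjusted p = 0.62, edgeR), and without young replicate 4 it was 0.21 and still did not pass.

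Olfml3, a secreted matrix protein of the olfactomedin family, was the one gene of the set with a fold change below 0. It was at 13.6, 14.0, 14.4, 16.7 and 13.8 CPM in young and at 11.5, 14.5, 14.0 and 16.1 CPM in old mice. The values of Olfml3 overlapped between the ages, with old replicate 1 below every young mouse and young replicate 4 above every old mouse. Its log2 fold change of -0.05 (SE 0.094, 95% confidence interval -0.25 to 0.14, adjusted p = 0.77, edgeR) changed sign when young replicate 4 or old replicate 1 was left out.

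On the log2(TPM + 1) scale the median of all genes moved by -0.14. Relative to that shift, Siglech stood at 0.10 and Gpr34 at 0.07, although their own values were -0.04 and -0.08. Olfml3 stood at -0.04 and Tmem119 at 0.49 relative to the shift. No gene of the set passed the test on that scale.

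Sall1 encodes a zinc-finger transcription factor that maintains microglial identity. It was at 21.8, 34.0, 24.9, 20.3 and 24.3 CPM in the young mice and at 34.7, 39.2, 26.0 and 60.2 CPM in the old mice. Its fold change was larger than that of any other gene of the set, but rested in part on old replicate 5. Without that mouse it was 0.41, below Tmem119 (0.51) and Selplg (0.455) in the same fit. Among the old mice its values ran from 26.0 to 60.2 CPM, a wider span than for the other genes, while in the young mice its SD, at 5.35 CPM around a mean of 25.1, was in proportion like that of Csf1r, at 14.5 around 68.1. The log2 fold change was 0.68 (SE 0.27, 95% confidence interval 0.04 to 1.31) and did not pass (adjusted p = 0.17, edgeR with robust estimation of the spread). Without the robust option the adjusted p was 0.042, and the 20 alternative settings gave 0.034 to 0.30. The lowest came from the fit with olfactory bulb markers as a covariate, described below.

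The spread of Sall1 followed that of genes that mark the olfactory bulb. The 9 markers (among them Doc2g, Cdhr1, Eomes and Th) were chosen after the values of Sall1 were seen. Their mean log2 CPM was 1.63, 3.60, 1.93, 1.79 and 1.99 in the young mice and 3.10, 3.27, 1.74 and 4.59 in the old mice. Young replicate 2, the highest young mouse for Sall1, and old replicate 5, the highest old mouse, were also the highest of their age for these markers. Across the 9 mice, with the mean of each age taken from both values, Sall1 and the markers had a Pearson r of 0.97 (exact permutation test within age, two-sided, p = 0.0014, Benjamini-Hochberg adjusted p = 0.014 over the 10 genes) and a Spearman rho of 0.92 (p = 0.0017, adjusted p = 0.017). Without young replicate 2 and old replicate 5, which lay farthest from the median of the markers, r was 0.92. Because the markers were chosen for this pattern, these values describe it and are no independent evidence of it.

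Tmem119 had a Pearson r of 0.61 with the same markers (exact permutation test, p = 0.059, adjusted p = 0.25) and a Spearman rho of 0.78 (p = 0.0049, adjusted p = 0.024). Without the same 2 mice its r was 0.40. For the other 8 genes neither coefficient passed the adjustment. Young replicate 4 weighed on these values, since without it the r was 0.85 for Csf1r, against 0.06 with it, and 0.76 for Tmem119. With the marker mean as a covariate, the log2 fold change of Sall1 was 0.25 (adjusted p = 0.034, edgeR), Tmem119 had 0.46 (adjusted p = 0.0017) and Selplg had 0.48 (adjusted p = 0.00089). The markers were chosen for their likeness to Sall1, and what part that choice had in its spread here was not tested. The adjusted p of Sall1 in this fit is therefore no independent evidence of a difference with age. None of the 9 markers passed the test of age, and their median log2 fold change was 1.09. Among the listed transcription factors Sall3, a relative of Sall1, was also highest in young replicate 2 (13.2 CPM) and old replicate 5 (23.7 CPM). What part differing amounts of olfactory bulb had in the values of Sall1 was not tested, since the covariate came from markers chosen for that likeness.

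**Figure D5:**
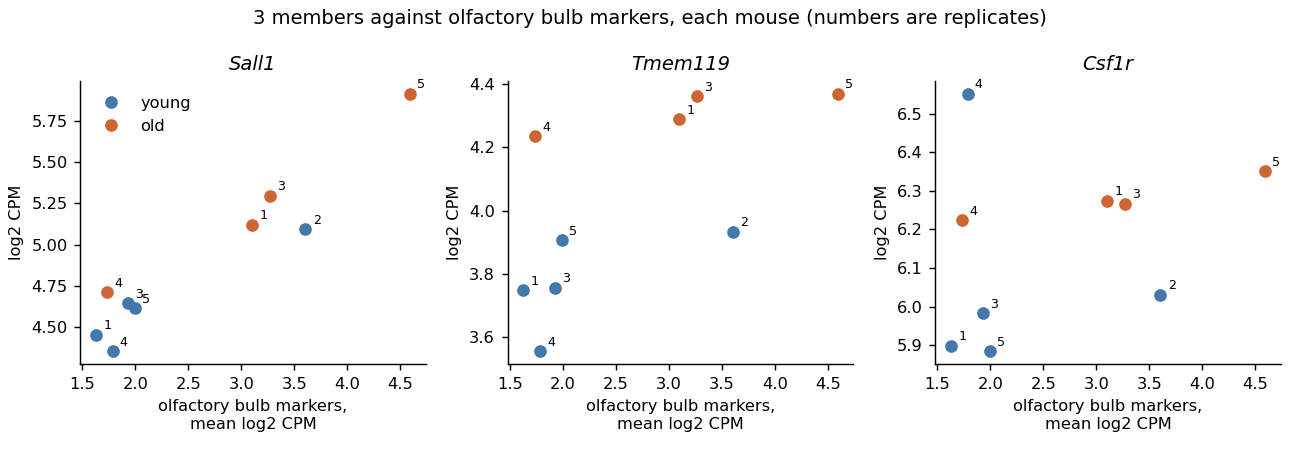
Log2 CPM of Sall1, Tmem119 and Csf1r against the mean log2 CPM of 9 olfactory bulb markers in each mouse (blue young, orange old, numbers are replicates). Sall1 rises with the markers within both ages, every old mouse lies above every young mouse for Tmem119, and Csf1r of young replicate 4 lies above all old mice.

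The genes were also compared with each other in the same mouse. With the mean log2 CPM of the 10 genes taken from each gene in the same mouse, Gpr34 and Olfml3 were lower in every old mouse than in any young mouse, as were 31.7% of all tested genes. The differences between their age means were -0.20 and -0.33 (log2). Sall1 stood 0.35, Tmem119 0.26 and Selplg 0.18 higher, with overlap between the ages. Relative to the mean of the set without Sall1, Gpr34 overlapped between the ages (-0.16), Olfml3 did not (-0.29), and Selplg was higher in every old mouse (0.22). The share of all tested genes without overlap was not computed for the reference without Sall1. These within-mouse differences carry no test. Within age, 30 of the 45 pairs of genes had a correlation above 0 over the 9 mice, with a median Pearson r of 0.38, and none passed the adjustment over 45 pairs by an exact permutation test. The lowest p belonged to Cx3cr1 and Siglech (r = 0.95, rho = 0.83, p = 0.0024 and 0.019, adjusted p = 0.11 and 0.27, and r = 0.88 without the 2 mice farthest from the median). P2ry13 and Gpr34 had r = 0.88 and rho = 0.82 (permutation p = 0.021 and 0.033, adjusted p = 0.14 and 0.29, and r = 0.97 without the 2 farthest mice). Tmem119 and Selplg, both higher in old brain, had r = -0.77 and rho = -0.53 within age (permutation p = 0.062 and 0.18, adjusted p = 0.15 and 0.52, r = -0.505 without the 2 farthest mice and -0.385 without young replicate 4).

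Levels of different genes were compared on the deposited TPM, which are scaled for gene length. Csf1r was first of the 10 in all 9 mice, with a mean of 36.1 ± 6.91 TPM in young (SD, n = 5) and 36.8 ± 4.13 TPM in old mice (SD, n = 4). P2ry12, Cx3cr1 and Tmem119 followed at 18.9 ± 4.09, 18.8 ± 3.61 and 15.5 ± 3.21 TPM in young mice and at 19.1 ± 2.81, 19.4 ± 2.36 and 19.8 ± 1.89 TPM in old mice. These 3 genes exchanged places 2 to 5 between mice. P2ry12 held places 2, 2, 2, 3 and 2 in young replicates 1 to 5. In old replicates 1, 3, 4 and 5 it held places 3, 3, 4 and 3. Tmem119 held places 4, 4, 4, 4 and 3 in the same young mice and 2, 2, 3 and 5 in the same old mice. The order of the genes within a mouse was not tested. Sall1 ranged from place 6 to place 2, Selplg held places 5 and 6, and Gpr34 was seventh in all 9 mice. P2ry13, Siglech and Olfml3 filled places 8 to 10 in an order that differed between mice.

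The genes most like the set were looked for by the Pearson r of their within-age deviations with the mean of the 10 genes over the 9 mice, among 14493 genes with a mean log2 CPM of at least 1. The highest were Fmn2 (r = 0.97), Prex1 (0.94), Clip2 (0.94), Cmtm6 (0.93) and Osbpl8 (0.92), followed by Atp10a, Nf2, AC061963.1, Nlrc3 and Slc38a7. They are the extremes of many genes over few mice and are given with no p. Of the 10, Atp10a was higher in old brain (log2 fold change 0.35, adjusted p = 0.0082, edgeR) and Prex1 lower (-0.17, adjusted p = 0.017).

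Among ligands and signalling partners of the set, 16 of 19 listed genes were tested, and 4 were higher and 1 lower in old brain. The list's median log2 fold change was 0.25. The lower gene was Cx3cl1, the ligand of the fractalkine receptor, at 404 to 462 CPM in young and 352 to 387 CPM in old mice with no overlap (log2 fold change -0.23, SE 0.046, adjusted p = 0.0043, edgeR). The 4 higher genes were Tgfbr2, the type II receptor of transforming growth factor beta (0.37, adjusted p = 0.0017), Smad3, a transducer of its signal (0.33, adjusted p = 0.00011), Itgav, an integrin subunit that activates it (0.32, adjusted p = 0.00018), and Nrros, which anchors it on microglia (0.76, adjusted p = 0.0026).

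The ligand gene Tgfb1 (0.50, adjusted p = 0.094, edgeR) and the receptor gene Tgfbr1 (0.21, adjusted p = 0.25) did not pass. Nor did the ligand genes Tgfb2 (-0.02) and Tgfb3 (0.18), the signal transducers Smad2 (0.04) and Smad4 (0.14) and the integrin subunit Itgb8 (-0.01). Of the ligands of the Csf1r product, Csf1 stood at a log2 fold change of 0.36 (edgeR, adjusted p = 0.23), with young replicate 4 at 40.8 CPM above the other young mice at 23.3 to 29.7 CPM. Il34 had 0.02 (adjusted p = 0.90), with means of 30.8 ± 1.82 (SD, n = 5) in the young and 31.3 ± 2.33 CPM (SD, n = 4) in the old brains. Without young replicate 4, 9 of the 16 genes were higher, Csf1, Tgfb1 and Tgfbr1 among them, and 1 was lower. Of all genes in that fit, 6.52% were higher.

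Of the 16 transcription factors listed for microglia, 7 were higher and none lower, against 6.09% and 4.89% of all tested genes. The listed factors had a median log2 fold change of 0.46. Those with the lowest p were Bhlhe41 (0.45, adjusted p = 5.5e-06, edgeR), Bhlhe40 (0.41, adjusted p = 0.00018), Ikzf1 (0.60, adjusted p = 0.0072), Mitf (0.35, adjusted p = 0.011), Mef2a (0.16, adjusted p = 0.023) and Runx1 (0.73, adjusted p = 0.026). Spi1, the gene of PU.1 (0.49, adjusted p = 0.16), Irf8 (0.78, adjusted p = 0.090) and Mef2c, which neurons also express (-0.08, adjusted p = 0.70), did not pass. Without young replicate 4, the count was 12 of 16, with Spi1 and Irf8 among them, beside 6.52% of all genes. In young mice the mean CPM, which is not scaled for gene length, was 165 for Mef2a, 97.5 for Bhlhe40 and 50.7 for Bhlhe41. It was 3.00 for Spi1 and 5.50 for Irf8. Other cells of the brain can carry such transcripts, and the part of microglia in these values was not tested.

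Of the 26 other microglia genes listed, 9 passed and all were higher, with a median log2 fold change of 0.48. The 6 with the lowest p were Rnase4 (0.62, adjusted p = 0.0012, edgeR), Gpr84 (1.29, adjusted p = 0.0050), Cd33 (0.50, adjusted p = 0.0091), the lysosomal gene Cd68 (1.06, adjusted p = 0.017), the lysosomal protease gene Ctss (1.06, adjusted p = 0.040) and Golm1 (0.29, adjusted p = 0.044). Without young replicate 4, 19 of 26 were higher, beside 6.52% of all genes. The difference between these genes and the homeostatic set was not tested. Gpr84 rested on 139 counts over the 9 libraries together.

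Against 6.09% and 4.89% of all tested genes, 6 of 23 tested genes of disease-associated microglia were higher and 1 lower. Those with the lowest p were Gpnmb (2.52, adjusted p = 0.013, edgeR), Lgals3 (1.99, adjusted p = 0.023), Apoe, which astrocytes also express (0.47, adjusted p = 0.0047), Cd9 (0.42, adjusted p = 0.0043), Axl (0.29, adjusted p = 0.0085) and, lower, Fabp5 (-0.21, adjusted p = 0.038). The median of the list was 0.47. Without young replicate 4, 18 genes were higher, beside 6.52% of all genes. Itgax and Clec7a did not pass (adjusted p = 0.72 and 0.44, edgeR). In young replicate 4, Itgax was at 9.71 CPM, against 0.0687 to 0.261 in other young and 2.76 to 5.42 in old mice. Clec7a was at 7.29 CPM in that mouse, 0.206 to 0.309 in other young and 4.25 to 5.78 in old mice.

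Markers of other cells that could carry these transcripts moved with age as well. Of 10 tested genes of border macrophages, which also use Csf1r and Cx3cr1, 5 were higher (Siglec1, F13a1, Stab1, Cd163 and Ms4a7), and their summed CPM was 37.9 to 41.6 in young and 51.1 to 61.9 in old mice with no overlap. Young replicate 4, at 41.6, was close to the other young mice in these genes. Siglec1 and Ms4a7 rested on 197 and 98 counts over all libraries together. Among 5 blood genes 3 were higher (sums of 86.1 to 116 CPM in young and 128 to 409 CPM in old mice), and 0 without young replicate 4, where their median log2 fold change was 1.32 against 1.26 with it. Of the 10 lymphocyte genes only Cd4 was tested, at 4.76 to 7.63 CPM in young and 4.71 to 6.22 CPM in old mice. The others had too few counts. Cd8a had 0 to 3 counts per library in young and 5 to 16 in old mice. Cd3e had 1 to 7 and 2 to 6, and Ms4a1 had 0 to 4 and 0 to 2. The part of these cells in the values of the homeostatic genes was not tested. None of 7 astrocyte genes differed, 2 of 8 neuronal genes were lower, 2 of 8 oligodendrocyte genes were higher and 2 lower, and 3 of 6 endothelial genes were higher. Of all tested genes, 6.09% were higher and 4.89% lower, and without young replicate 4, 6.52% were higher.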

How the data were processed

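Whole-brain polyA RNA of 5 young and 4 old male mice was sequenced. The authors trimmed the reads with Trimmomatic, aligned them to GRCm38 (mm10 in the submitters' processing notes) with STAR and used featureCounts to count reads with a unique position over the exons of each gene. These raw counts, not normalized, were deposited by the authors. Also deposited were a signal table of 17994 genes, made by the authors by dividing the counts by 1 size factor per library, and TPM, for which the authors used gene lengths not given in the sources used here. Each table held 1 further per-sample column, which matched no sample and was not used.

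From the counts, genes were kept by edgeR's filterByExpr (minimum count 10, minimum total 15), normalized by TMM, and compared between the ages by edgeR's quasi-likelihood test (glmQLFit with robust estimation) with Benjamini-Hochberg adjustment over all 18492 genes. The results of both settings of the robust option were seen before 1 was chosen. CPM (counts scaled to a common library size) use TMM library sizes, log2 CPM has a prior count of 2, and the SE was computed from the test. The median SE of the log2 fold change was 0.085, and mice of 1 age differed by a biological coefficient of variation of 6.71% and by more than sampling noise (the lowest chi-square divided by its degrees of freedom was 3.71 among young and 4.39 among old pairs), so that each was counted as a replicate. The test was tested on simulated counts. Correlations use deviations from the age mean and an exact test over 2880 permutations within age, whose smallest p is 0.000347. The tools were edgeR 4.0.16, limma 3.58.1 and DESeq2 1.42.0 in R 4.3.3.

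The 10 genes and all lists were chosen with earlier results of these data known, and the olfactory bulb markers after the values of Sall1 were seen. All 10 genes are named. From the microglia, ligand, transcription factor, disease-associated and border macrophage lists, up to 6 genes a list with an adjusted p under 0.05 are named by lowest p, besides ligands, receptors and factors named whatever their p. A result under this rule is not reported here. The 10 genes most like the set by within-age deviations are named. Genes near Tmem119 and the remaining genes were named by position or role, apart from Itgax and Clec7a, named for their values in young replicate 4. Positions and symbols came from GENCODE M21, and 49056 of the 49315 IDs had a symbol. Alternatives were DESeq2 and upper-quartile size factors, DESeq2's Wald test, no filter on low counts, limma on log2(TPM + 1), log2(TPM + 0.1) and log2(normalized counts + 1), the replicate number as a block and each mouse left out. Fits without robust estimation, on the 17994 genes and with olfactory bulb markers as a covariate were added after the data were seen.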

Additional observations from a re-analysis of the deposited data

Results flagged for a closer look

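Single mice stood apart within their age in 9 of 92 combinations of gene and age, by the gap to the nearest mouse divided by the range of the group (Dixon's test at the 95% level). Chance alone flags about 1 in 20, or 4.6 of 92, and 7 of the 9 came from young replicate 4. Among the homeostatic genes, young replicate 4 was high for Csf1r (93.7 CPM, gap ratio 0.779) and Olfml3 (16.7 CPM, 0.743), and old replicate 5 was high among the old mice for Cx3cr1 (40.9 CPM, 0.923).

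Among the other genes, young replicate 4 was high for Ctss (66.6 CPM, gap ratio 0.97), Cd68 (10.8 CPM, 0.913), Irf8 (9.95 CPM, 0.82), Tgfbr1 (34.3 CPM, 0.816) and Tgfb1 (9.71 CPM, 0.74), and young replicate 2 was high for Itgav (97.3 CPM, 0.717).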

How the results depend on the processing

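Tmem119 and Selplg kept their direction under all 20 alternatives and passed in 18, the exceptions being both TPM scales (log2 fold changes of 0.35 and 0.37 for Tmem119 and 0.27 and 0.29 for Selplg on log2(TPM + 1) and log2(TPM + 0.1)). On these scales 0 genes of the set were higher, their median was 0.048 and 0.050, and of all genes 307 and 304 were higher and 287 and 296 lower. Siglech turned to -0.042 and -0.046 and Gpr34 to -0.077 and -0.085. The median of all genes moved by -0.14 and -0.16. Olfml3 turned to 0.0052 without young replicate 4 and to 0.039 without old replicate 1, and ranged from -0.13 to 0.039 over the mice left out. Leaving out 1 mouse at a time, 2 to 4 genes were higher, with a median of 0.16 to 0.32, the highest of both without young replicate 4. Of all genes, 879 (without young replicate 1) to 1182 (without young replicate 4) were higher in these fits. On the authors' normalized counts 4 were higher (P2ry13 and Sall1 joined) and 1 passed both thresholds, as did 1 without robust estimation. Of all genes, 1134 and 1146 were higher in these 2 settings. P2ry13 passed in 4 of 20 alternatives (adjusted p 0.046 to 0.049) and Cx3cr1 also where every gene with a count was tested (adjusted p = 0.013, edgeR). The cause of these changes was not tested. Same-numbered young and old mice had deviations correlated at -0.12 to 0.17, and differently numbered ones at -0.10 to 0.098. Whether the numbers paired the mice cannot be told from so few pairs. With the replicate block, 2 genes were higher, the median was 0.196, and of all genes 1039 were higher and 789 lower. Counts of 75 to 142 per library limit P2ry13, and young replicate 4 decides the call of Csf1r.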
